A study of Mus musculus with 12 samples.

Results

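The genes described are 10 cytosolic heat shock genes of the mouse: Hspa1a, Hspa1b and Hspa8 of the HSP70 family, Hsph1, Dnajb1 and Bag3, which work with HSP70, the small heat shock gene Hspb1, Hsp90aa1 and Hsp90ab1 of the HSP90 family, and the transcription factor gene Hsf1. They are 10 of the 21936 genes counted in liver RNA. They were chosen by name, with values of these data in view: several of them were high in all libraries of 1 group, LFG, compared with the other groups. The levels in LFG against the other groups are therefore given as a description, with no test. All mice were C57BL/6 males, 6 weeks old on arrival, and had been given carbon tetrachloride (CCl4), a solvent that injures hepatocytes, by intraperitoneal injection at 1 mL/kg, 2 times per week for 8 weeks. Livers of the liver fibrosis group, LFG, were taken when this course ended. The other groups went on to tail vein injections, 2 each week over 4 weeks: of 200 µL of saline (PBS) in the regression group, REG, and of exosomes from human adipose mesenchymal stem cells, 250 µg of their protein in the same volume, in hADMSCs-Exo. LFG thus differed from both other groups in time since the last CCl4, in age and in the tail vein injections, and these cannot be told apart. No liver without CCl4 is among the 9 libraries, 3 in each group.

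Heat shock proteins are chaperones, which bind unfolded proteins and help them fold, keep them from clumping or pass them on for degradation. HSP70 proteins do so in cycles of ATP use that J-domain co-chaperones such as Dnajb1 start and that exchange factors such as Hsph1 and Bag3 end, while HSP90 proteins hold kinases, receptors and other clients in a state close to their active form. When unfolded proteins build up, the transcription factor HSF1 forms trimers, binds arrays of the inverted units GAA and TTC in front of these genes and switches them on. HSF1 is held inactive by the chaperones it induces and is set free at the protein level, so its own mRNA need not move with its targets. In the liver, CCl4 is turned into reactive radicals by cytochrome P450, mainly Cyp2e1, in hepatocytes around the central vein.

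Libraries held 13837445 to 19840917 counts. The library labelled LFG 3 stood apart from its group. The summed level of 8 stellate cell and myofibroblast markers was 919, 563 and 30.8 CPM (counts scaled to a common library size, with TMM normalization over the 9 libraries) in LFG 1, 2 and 3, against 108 to 181 in REG and 36.3 to 91.0 in hADMSCs-Exo. Col1a1, the main fibrillar collagen gene of scar tissue, was at 259, 127 and 2.68 CPM in LFG 1, 2 and 3, so the label of fibrosis is not borne out by this gene in LFG 3. The summed level of 6 macrophage markers was 713, 588 and 97.1 CPM in LFG 1, 2 and 3. The 8 hepatocyte markers, the defining ones of this tissue, were detected in every library and summed to 83902 to 154419 CPM in LFG, 166474 to 172244 in REG and 122984 to 140539 in hADMSCs-Exo. Cyp2e1, 1 of these 8, was at 736, 2344 and 11938 CPM in LFG 1, 2 and 3, at 4482 to 5206 in REG and at 6395 to 8932 in hADMSCs-Exo, so LFG 3 had the highest value of all 9 libraries and LFG 1 the lowest. The part of these markers in the levels of the heat shock genes was not tested. For each of the 10 genes, log2 fold changes against LFG are also given with LFG 3 left out. In bulk tissue, fewer cells of a type and less RNA per cell cannot be told apart.

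Hspa1a and Hspa1b encode the strongly inducible HSP70 and lie side by side on chromosome 17 of GRCm38, at chr17:34969190-34972156 and chr17:34956436-34959238, both on the minus strand and each as 1 exon. Their longest open reading frames, 1926 and 1929 bases, were identical in 99.4% of aligned positions. Of all 100-base windows of the transcripts, 47.1% of Hspa1a and 49.9% of Hspa1b also occur in the other gene, so how reads were divided between the pair is uncertain. Hspa1a also overlaps the gene Gm20481 on the opposite strand, and the use of strand in counting is not given in the sources used here. The 250 bases before the starts of these genes differed between them at 3 positions. They are shown because HSF1 acts through this stretch, followed by those of Hsph1 and Dnajb1, a gene with the paired unit and a gene without it, all from RefSeq on GRCm38.p6 and written 5′ to 3′ along the gene, with capitals for each pair of units that matched GAANNTTC or TTCNNGAA.
Hspa1a, chr17:34972157-34972406, minus strand: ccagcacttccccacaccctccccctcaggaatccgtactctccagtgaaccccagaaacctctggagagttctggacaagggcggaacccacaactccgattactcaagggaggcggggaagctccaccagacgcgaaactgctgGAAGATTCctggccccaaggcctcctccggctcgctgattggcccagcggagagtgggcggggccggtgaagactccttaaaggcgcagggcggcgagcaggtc
Hspa1b, chr17:34959239-34959488, minus strand: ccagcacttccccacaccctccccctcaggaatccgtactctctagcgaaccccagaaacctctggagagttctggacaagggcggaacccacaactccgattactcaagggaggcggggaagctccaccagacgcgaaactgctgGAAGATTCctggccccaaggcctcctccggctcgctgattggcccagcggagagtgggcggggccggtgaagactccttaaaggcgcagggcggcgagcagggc
Hsph1, chr5:149636337-149636586, minus strand: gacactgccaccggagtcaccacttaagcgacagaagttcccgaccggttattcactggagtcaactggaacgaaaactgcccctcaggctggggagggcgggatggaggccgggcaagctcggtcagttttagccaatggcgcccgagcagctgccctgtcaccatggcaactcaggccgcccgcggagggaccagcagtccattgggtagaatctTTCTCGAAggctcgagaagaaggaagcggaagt
Dnajb1, chr8:83607925-83608174, plus strand: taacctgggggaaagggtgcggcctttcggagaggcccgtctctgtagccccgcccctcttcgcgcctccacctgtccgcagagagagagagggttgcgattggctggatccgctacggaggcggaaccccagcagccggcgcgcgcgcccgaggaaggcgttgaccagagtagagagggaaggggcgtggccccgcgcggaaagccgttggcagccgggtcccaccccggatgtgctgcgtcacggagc

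The paired unit was searched on both strands, and both spellings read the same on the opposite strand. RefSeq windows of 250 bases before and 50 after the start were found for 6 of the 10 genes, Hspa1a, Hspa1b, Hsph1, Dnajb1, Bag3 and Hspb1, and not for Hspa8, Hsp90aa1, Hsp90ab1 and Hsf1. Only the 250 bases before the start were searched, in these genes and in all other windows. The pair was found in 4 of the 6, compared with 12.8% of 32851 windows and 14.5% of 27025 genes. In Hspa1a and Hspa1b it lay at −104 to −97 from the start, in Hsph1 at −33 to −26, and in Hspb1 at both −117 to −110 and −97 to −90. The RefSeq start of Hsph1 lies 40 bases from the gene start in the counted table and that of Dnajb1 18 bases from it. None of the 6 stretches of 250 bases held the 3-unit array GAANNTTCNNGAA or TTCNNGAANNTTC, which includes the pair and was found in 0.466% of all windows. Dnajb1 and Bag3 held neither, which says only that these letters are not in these 250 bases.

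**Figure D1:**
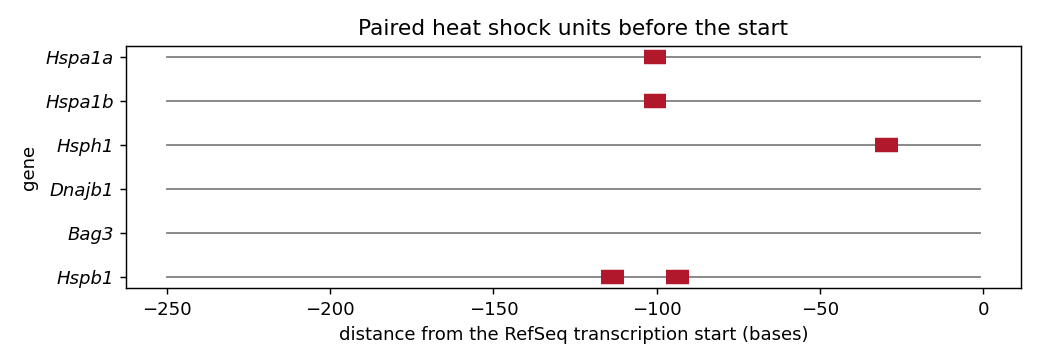
Positions of the paired GAA and TTC units in the 250 bases before the RefSeq transcription start of 6 heat shock genes, with the distance from the start in bases on the x axis and 1 gene per line (red blocks, matches, and grey lines, the 250 bases). The 50 bases after the start were not searched. The block lies at −104 to −97 in both Hspa1a and Hspa1b and at −33 to −26 in Hsph1, Hspb1 has a pair of blocks, and the lines of Dnajb1 and Bag3 are empty.

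Among the 3 HSP70 genes, the inducible pair showed the widest distance between LFG and the other groups of the 10 genes. Hspa1a was at 3.32, 4.36 and 6.35 CPM in LFG 1, 2 and 3, at 0.493, 0.549 and 0.372 CPM in REG and at 0.533, 0.422 and 0.126 CPM in hADMSCs-Exo. All 3 LFG libraries were above all 6 others, and the lowest of them was 6.05 times the highest of the rest. These levels rest on 71 to 79 counts per LFG library, 7 to 10 per REG library and 2 to 9 per hADMSCs-Exo library. The log2 fold change of Hspa1a was -3.28 (SE 0.44) in REG and -3.66 (SE 0.60) in hADMSCs-Exo against LFG, and -2.97 and -3.37 without LFG 3.

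Hspa1b, with far more reads, was at 41.8, 71.1 and 72.4 CPM in LFG, at 3.39, 3.35 and 12.7 CPM in REG and at 7.40, 13.1 and 15.8 CPM in hADMSCs-Exo. LFG again did not overlap the other groups, and the lowest LFG library was 2.64 times the highest of the rest. REG 3 stood above REG 1 and 2 and inside the range of hADMSCs-Exo. The log2 fold change of Hspa1b was -3.24 (SE 0.60) in REG and -2.36 (SE 0.35) in hADMSCs-Exo against LFG, and -3.07 and -2.21 without LFG 3. The sum of both genes does not depend on how shared reads were divided between them. Whether reads that fit both genes were counted at all is not stated. The sum was 45.1, 75.4 and 78.8 CPM in LFG, 3.88, 3.90 and 13.1 in REG and 7.93, 13.5 and 15.9 in hADMSCs-Exo, the same order of groups as in Hspa1b alone.

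Hspa8 (chr9:40800984-40810087), the HSP70 that cells make at all times and that also uncoats clathrin vesicles, had the highest mean level per length of the 10 genes in LFG and hADMSCs-Exo. Its mean was 543 ± 102 FPKM (reads per length and library total; SD, n = 3) in LFG, 201 ± 29.5 in REG and 293 ± 62.9 in hADMSCs-Exo, compared with 23.0 ± 3.98, 2.19 ± 1.82 and 4.23 ± 1.35 FPKM for Hspa1b. In REG, Hsp90ab1 was above Hspa8, at 244 ± 14.1 FPKM. In hADMSCs-Exo 1 it was above Hspa8 too, at 311 against 220 FPKM. In CPM, Hspa8 was at 1986, 2217 and 2307 in LFG, at 808, 858 and 1063 in REG and at 923, 1422 and 1492 in hADMSCs-Exo. The lowest LFG library was 1.33 times the highest of the others, so this constitutive gene differed in the same direction as the inducible pair, by a smaller factor. Its log2 fold change was -1.24 (SE 0.25) in REG and -0.77 (SE 0.30) in hADMSCs-Exo against LFG, and -1.16 and -0.70 without LFG 3. Reads of Hspa8 share their place with 3 small nucleolar RNA genes of the Snord14 family within it.

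The co-chaperones of HSP70 were also higher in LFG. Hsph1, an HSP110 protein that exchanges nucleotide on HSP70 and dissolves aggregates with it, was at 125, 157 and 106 CPM in LFG, at 12.7, 18.7 and 27.1 CPM in REG and at 26.8, 53.7 and 47.4 CPM in hADMSCs-Exo. It followed the inducible HSP70 genes in the size of its difference, with a mean in LFG 6.62 times that of REG and 3.03 times that of hADMSCs-Exo. The log2 fold changes of Hsph1 against LFG were -2.72 (SE 0.32) in REG and -1.61 (SE 0.31) in hADMSCs-Exo, and -2.81 and -1.71 without LFG 3.

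Dnajb1, the J-domain protein that brings clients to HSP70, was at 43.8, 39.2 and 59.3 CPM in LFG, at 15.0, 17.8 and 25.6 CPM in REG and at 22.6, 25.4 and 28.0 CPM in hADMSCs-Exo. LFG did not overlap the other groups, which overlapped each other, and the log2 fold changes against LFG were -1.28 (SE 0.27) in REG and -0.91 (SE 0.21) in hADMSCs-Exo, and -1.05 and -0.70 without LFG 3. Bag3, which links HSP70 to small heat shock proteins and to autophagy, was at 42.3, 36.7 and 51.7 CPM in LFG, at 21.1, 22.0 and 25.1 CPM in REG and at 36.3, 28.9 and 35.3 CPM in hADMSCs-Exo. Bag3 was the gene nearest to overlap among those that did not: LFG 2 at 36.7 CPM stood only just above hADMSCs-Exo 1 at 36.3 CPM, a ratio of 1.01. Its log2 fold change was -0.93 (SE 0.20) in REG and -0.38 (SE 0.20) in hADMSCs-Exo against LFG, and -0.75 and -0.22 without LFG 3. Bag3 overlaps the gene 2610306O10Rik on its own strand.

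The HSP90 genes differed from the HSP70 genes in which LFG library was highest. Hsp90aa1, the inducible form, was at 437, 409 and 241 CPM in LFG, at 93.1, 130 and 107 CPM in REG and at 168, 148 and 145 CPM in hADMSCs-Exo. LFG 3 was the lowest of its group and still above all 6 other libraries. The log2 fold change of Hsp90aa1 against LFG was -1.71 (SE 0.29) in REG and -1.25 (SE 0.29) in hADMSCs-Exo, and -1.89 and -1.45 without LFG 3. Hsp90ab1, the constitutive form, was at 1087, 1296 and 1028 CPM in LFG, at 743, 840 and 728 CPM in REG and at 908, 849 and 795 CPM in hADMSCs-Exo. Its differences were the smallest of the 8 genes whose LFG libraries all stood above the rest, other than Bag3 in hADMSCs-Exo, with log2 fold changes of -0.55 (SE 0.23) and -0.43 (SE 0.24), and -0.58 and -0.47 without LFG 3. Scaled by library totals alone, as FPKM is, Hsp90ab1 no longer separated: LFG 3 was at 277 FPKM and hADMSCs-Exo 1 at 311 FPKM.

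Hspb1 and Hsf1 did not separate LFG from the rest. Hspb1, a small heat shock protein that holds unfolded clients without using ATP, was at 9.09, 18.2 and 45.6 CPM in LFG, at 9.42, 14.2 and 7.22 CPM in REG and at 11.2, 14.6 and 15.9 CPM in hADMSCs-Exo. LFG 1 was below 5 of the 6 other libraries, LFG 2 was above all 6 and LFG 3 far above them. Its log2 fold changes of -1.23 (SE 0.59) in REG and -0.80 (SE 0.54) in hADMSCs-Exo against LFG became -0.36 and 0.05 without LFG 3. Hsf1 was at 12.6, 12.8 and 27.3 CPM in LFG, at 14.1, 15.3 and 15.9 CPM in REG and at 20.0, 18.7 and 13.7 CPM in hADMSCs-Exo. LFG 1 and 2 were the lowest of all 9 libraries for Hsf1 and LFG 3 the highest. Its log2 fold change of -0.21 (SE 0.34) in REG against LFG turned to 0.29 without LFG 3, and that of -0.01 (SE 0.35) in hADMSCs-Exo turned to 0.47.

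**Figure D2:**
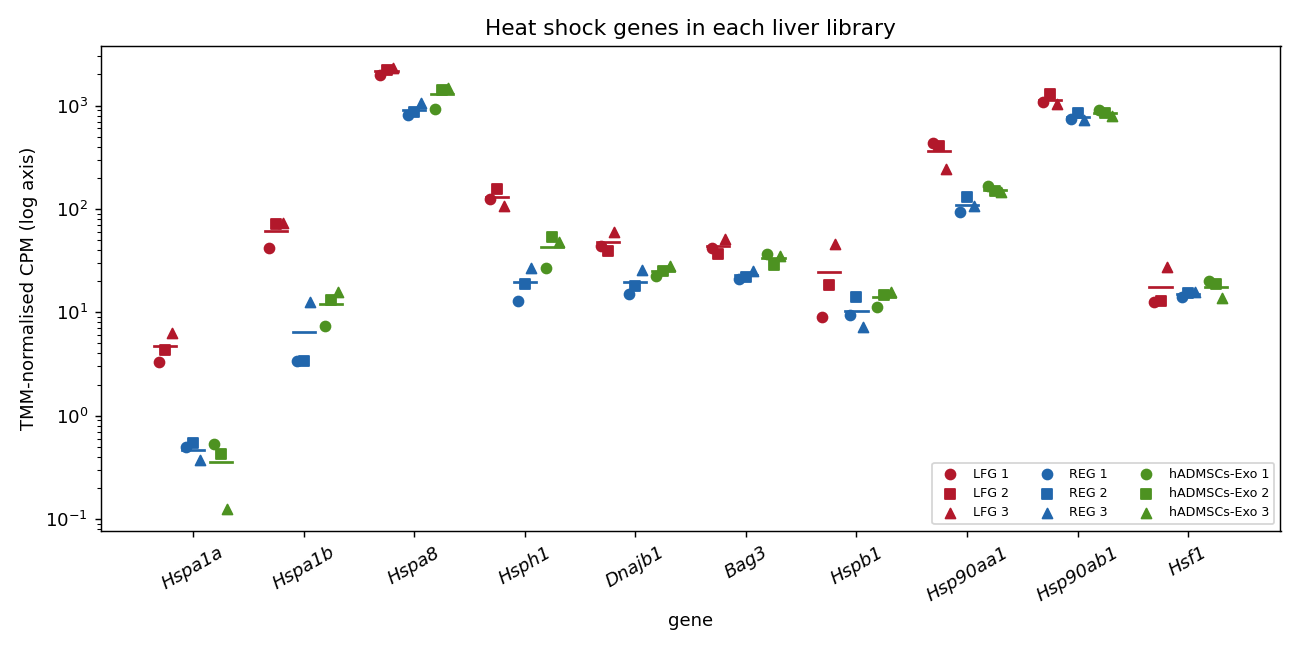
TMM-normalized CPM on a log axis of 10 heat shock genes in each of the 9 libraries (red, LFG; blue, REG; green, hADMSCs-Exo; circle, square and triangle, replicates 1, 2 and 3; horizontal lines, group means). The red points stand above all others in 8 genes, by the widest distance in Hspa1a and Hspa1b, in Hspb1 the red triangle and square stand above the rest and the red circle does not, and in Hsf1 only the red triangle does.

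Counted over the 10 genes, 8 had all 3 LFG libraries above all 6 others, a pattern that chose them, while 3.82% of 12760 genes did so. By library totals alone the number was 7, beside 4.35% of genes. Taken 1 at a time, LFG 1 was above all 6 others in 8 of the 10 genes, LFG 2 in 9 and LFG 3 in 10, beside 28.7%, 27.1% and 29.7% of all genes. LFG 1 and 2 without LFG 3 were above them in 8 of 10, beside 19.2% of genes. LFG 3, which was far below LFG 1 and 2 in collagen genes, was the lowest LFG library in 3 of the 10, Hsph1, Hsp90aa1 and Hsp90ab1, and since the choice of genes looked at LFG 3 as well, nothing is read from this. Its part in the other values of LFG was not tested beyond leaving it out.

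The comparisons of REG and hADMSCs-Exo with LFG share the LFG libraries, and their values stand side by side. The median log2 fold change of the 10 genes was -1.26 in REG against LFG, where all genes tested had a median of -0.07, and -0.85 in hADMSCs-Exo against LFG, where all genes had -0.06. Without LFG 3 the medians of the 10 genes were -1.11 and -0.70. All 10 genes had a negative value in both comparisons, from -3.28 to -0.21 in REG and from -3.66 to -0.01 in hADMSCs-Exo. In each comparison 8 of the 10 did not overlap LFG, beside 10.0% of all genes lower in REG and 5.93% lower in hADMSCs-Exo without overlap. No gene of the 12517 and 12489 tested reached an adjusted p under 0.05 in these comparisons by edgeR's quasi-likelihood test, while 11.3% and 5.98% had an unadjusted p under 0.05. Without LFG 3, 2181 genes (16.8%) and 919 genes (7.09%) reached it by edgeR. With all libraries DESeq2 gave 371 genes (2.96%) and 87 genes (0.697%) at an adjusted p under 0.05.

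**Figure D3:**
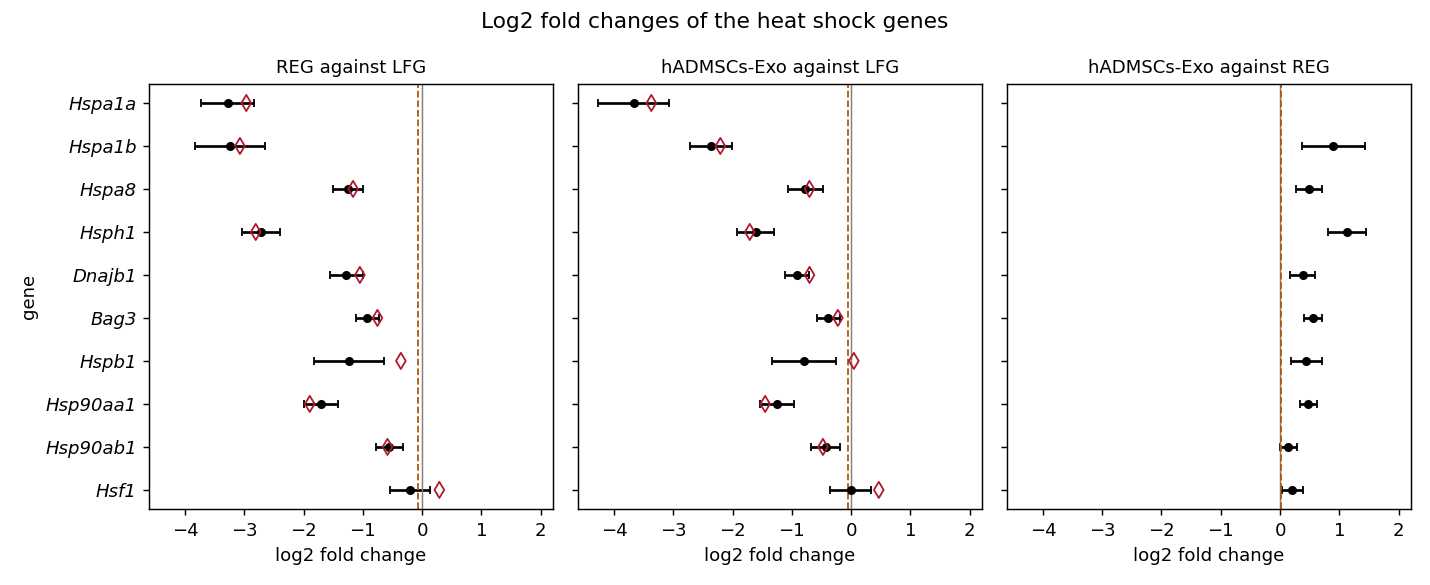
Log2 fold changes of the 10 heat shock genes in 3 comparisons (black points, edgeR estimates from all 6 libraries; bars, SE; red diamonds, estimates without LFG 3; dashed lines, median of all genes tested). Against LFG the points run from near 0 in Hsf1 to -3.28 and -3.66 in Hspa1a, the diamonds of Hspb1 and Hsf1 lie farthest from their points, and all 9 genes tested against REG lie above 0 in hADMSCs-Exo.

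Whether the exosomes altered these genes beyond the regression that followed the end of CCl4 is addressed by hADMSCs-Exo against REG, a contrast that the choice of genes did not use, although the REG and hADMSCs-Exo libraries entered it as the groups that LFG was compared with. Hspa1a, with at most 10 counts per library, did not pass the filter on low counts and was not tested. Its mean was lower in hADMSCs-Exo, at 0.360 CPM, than in REG, at 0.471 CPM. The other 9 genes were all higher in hADMSCs-Exo than in REG, with a median log2 fold change of 0.48, where the 12337 genes tested had 0.01. None of the 9 passed an adjusted p under 0.05 by edgeR or by DESeq2, where 1 gene in all (0.00811%) and 111 genes (0.900%) did. At an unadjusted p under 0.05, 3 of the 9 were higher and 0 lower, beside 5.34% of all genes higher and 4.69% lower.

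The 3 genes were Bag3, Hsph1 and Hsp90aa1. Bag3 was at 28.9 to 36.3 CPM in hADMSCs-Exo and 21.1 to 25.1 in REG, without overlap, and its log2 fold change was 0.56 (SE 0.15, 95% interval 0.22 to 0.90, unadjusted p = 0.0055 and adjusted p = 0.394 by edgeR). Hsph1 was 2.19 times as high in hADMSCs-Exo as in REG in the means, with a log2 fold change of 1.13 (SE 0.32, 95% interval 0.38 to 1.88, unadjusted p = 0.0081 and adjusted p = 0.407 by edgeR). The groups of Hsph1 met at 1 point, where REG 3 at 27.1 CPM was above hADMSCs-Exo 1 at 26.8 CPM. Hsp90aa1 was at 145 to 168 CPM in hADMSCs-Exo and 93.1 to 130 in REG, without overlap, and its log2 fold change was 0.48 (SE 0.15, 95% interval 0.14 to 0.82, unadjusted p = 0.012 and adjusted p = 0.407 by edgeR). Bag3 and Hsp90aa1 were the only 2 of the 10 genes whose libraries did not overlap in this contrast, beside 8.07% of all genes higher in hADMSCs-Exo without overlap.

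For the remaining 6 genes the 95% interval of the difference included 0. Hspa8 came closest to excluding it, with a log2 fold change of 0.49 and an interval from -0.01 to 0.99. The intervals ran from -0.33 to 2.12 for Hspa1b, from -0.11 to 0.87 for Dnajb1, from -0.16 to 1.04 for Hspb1, from -0.18 to 0.46 for Hsp90ab1 and from -0.19 to 0.61 for Hsf1. Hspa1b had the widest of them, and its estimate moved from 0.90 to 1.84 when REG 3, the highest REG library for this gene, was left out. Without REG 2 the estimate fell to 0.58. Over the main fit and its alternatives the adjusted p of Hsph1 ran from 0.0549, by DESeq2, to 1.00, and no adjusted p of the 9 genes was under 0.05.

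Averaged over the 10 genes, the log2 level minus the mean of each gene was 0.67, 0.92 and 1.16 in LFG 1, 2 and 3, -0.90, -0.66 and -0.50 in REG and -0.33, -0.13 and -0.23 in hADMSCs-Exo. The order of groups was LFG, hADMSCs-Exo and REG, with no overlap between neighbors, and this is a description of genes chosen for their level in LFG. Summed, the 10 genes made up 3788 to 4261 CPM in LFG, 2123 to 2588 in hADMSCs-Exo and 1720 to 2012 in REG, most of it Hspa8 and Hsp90ab1. Against the mean of the other 9 genes, each gene's level over the 9 libraries had a Pearson r of 0.81 for Hspa1a, 0.93 for Hspa1b, 0.94 for Hspa8, 0.93 for Hsph1, 0.95 for Dnajb1, 0.86 for Bag3, 0.85 for Hsp90aa1 and 0.86 for Hsp90ab1. Hspb1, at 0.58, and Hsf1, at 0.19, followed the rest least. All these values rest on the same 9 libraries in 3 groups and carry no test.

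The genes outside the 10 whose level over the 9 libraries was most like this average, among 12178 genes ranked, were Syvn1 (Pearson r 0.982, Spearman rho 0.983), Nek7 (0.973, 0.90), Zcchc9 (0.970, 0.933), R3hdm1 (0.970, 1), Tmf1 (0.966, 0.950) and Mbd1 (0.965, 0.983). Syvn1, a ubiquitin ligase of the endoplasmic reticulum that marks misfolded proteins for degradation, was at 102, 197 and 214 CPM in LFG, at 26.5, 38.6 and 40.8 CPM in REG and at 48.6, 60.1 and 67.3 CPM in hADMSCs-Exo. Its libraries stood in the group order LFG, hADMSCs-Exo and REG without overlap, which its choice by likeness to the average largely fixed.

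The other genes of the cytosolic heat shock network, 40 co-chaperones, relatives and regulators, were read in the same comparisons. In REG against LFG, 38 were tested, 29 of them were lower, and their median log2 fold change was -0.33. At an unadjusted p under 0.05, 8 were lower and 1 was higher, beside 6.70% of all genes lower and 4.62% higher. In hADMSCs-Exo against LFG 29 of 38 were lower, with a median of -0.29, and 7 were lower and 1 higher at an unadjusted p under 0.05, beside 3.68% and 2.30% of all genes. None of them reached an adjusted p under 0.05 by edgeR with all libraries. By DESeq2 5 did in REG and 1 in hADMSCs-Exo against LFG, beside 2.96% and 0.697% of all genes. Without LFG 3 the medians were -0.13 and -0.11. At an unadjusted p under 0.05, 8 were then lower and 4 higher in REG, beside 19.1% of all genes lower and 18.2% higher, and 7 lower and 4 higher in hADMSCs-Exo, beside 15.7% and 12.8%, and 9 and 2 of the 38 reached an adjusted p under 0.05, beside 16.8% and 7.09% of all genes.

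Stip1, which hands clients from HSP70 to HSP90, was at 109 to 117 CPM in LFG, 52.6 to 59.0 in REG and 48.4 to 71.9 in hADMSCs-Exo, with log2 fold changes of -0.99 and -0.88 against LFG. Chordc1, an HSP90 partner, was at 56.0 to 70.8 CPM in LFG, 17.8 to 35.9 in REG and 27.2 to 42.2 in hADMSCs-Exo, with log2 fold changes of -1.34 and -0.91. Dnaja1, a J-domain protein, was at 427 to 456 CPM in LFG, 163 to 257 in REG and 254 to 330 in hADMSCs-Exo. All LFG libraries were above all others in these 3 genes and in Cacybp, at 43.2 to 60.8 CPM in LFG and at most 33.4 elsewhere, 4 of the 40 genes beside 3.82% of all genes. All LFG libraries were below all others in 2 of the 40, Cdc37 and Stub1 (the latter named after its values were seen), beside 3.86% of all genes. Dnajb4, another J-domain protein, was at 50.8 to 72.0 CPM in LFG and 20.6 to 33.5 in REG, and hADMSCs-Exo 1 at 61.9 CPM lay within the range of LFG.

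The rest of the network did not share the pattern in every gene. Hspa4l, a relative of Hsph1, was at 43.1 and 51.9 CPM in LFG 1 and 2 and at 20.4 CPM in LFG 3, within the range of REG, 16.7 to 23.8. Cryab, a small heat shock protein, was lower in hADMSCs-Exo than in REG, with a log2 fold change of -0.72 (SE 0.28, unadjusted p = 0.031 and adjusted p = 0.463 by edgeR), the direction opposite to the 9 genes tested. Dnajb6 had log2 fold changes of 0.19 in REG and 0.48 in hADMSCs-Exo against LFG, and Cdc37, which brings kinases to HSP90, had 0.45 and 0.28. Of the regulators, Hsf2 was at 35.3 CPM in LFG 3 and 15.2 to 20.2 in the other 8 libraries, and Hsbp1, which binds HSF1, at 101 CPM in LFG 3 and 47.1 to 68.3 elsewhere, so Hsf1, Hsf2 and Hsbp1 each had their highest value in that library. This was common: LFG 3 was above all 6 libraries of the other groups in 24 of the 40 genes and in 29.7% of all genes. Between hADMSCs-Exo and REG, 20 of the 37 tested had a higher and 17 a lower value in hADMSCs-Exo, with a median log2 fold change of 0.07, and 3 were higher and 1 lower at an unadjusted p under 0.05, beside 5.34% and 4.69% of all genes, with Dnajb4 at a log2 fold change of 0.77, Dnaja1 at 0.62 and Dnajb6 at 0.31.

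**Figure D4:**
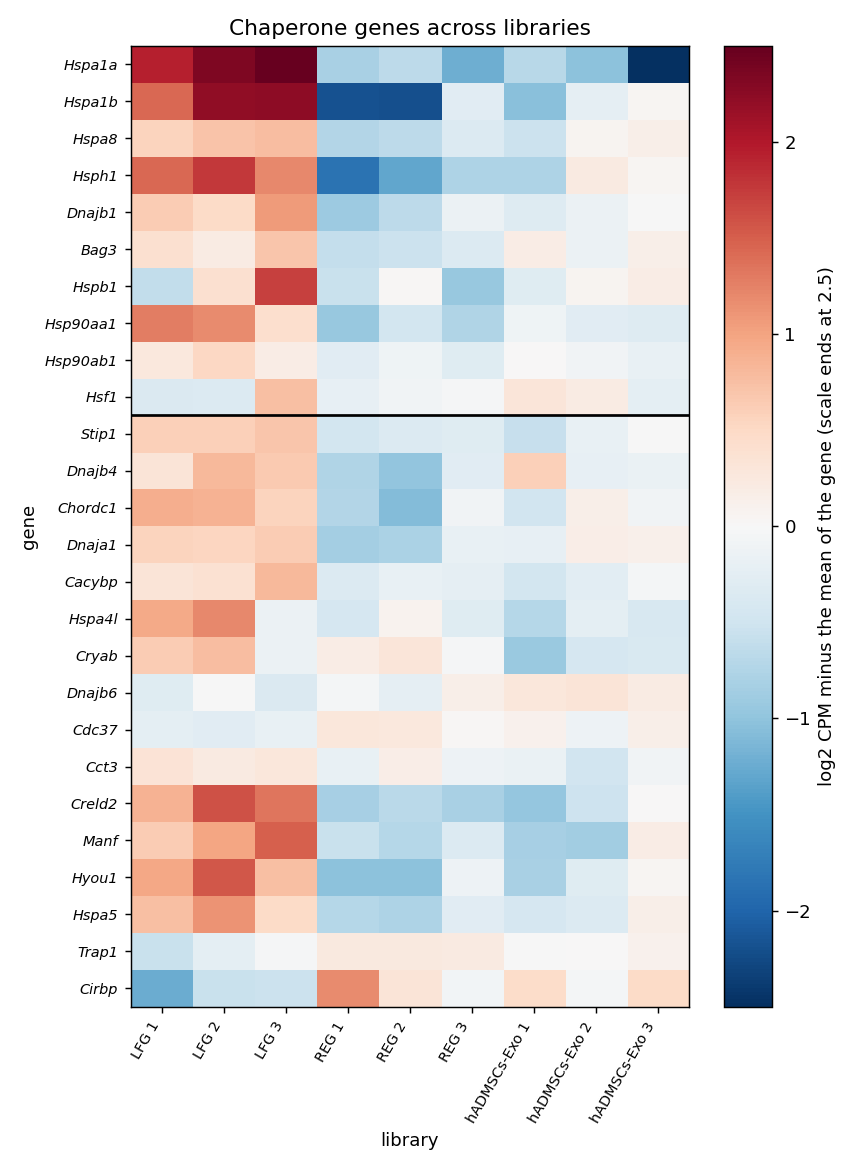
Log2 CPM of the 10 heat shock genes (above the line) and of the named genes of other chaperone lists (below it) in each library, minus the mean of the gene over the 9 libraries, with the color scale ending at 2.5 on either side. The 3 LFG columns are red in Hspa1a, Hspa1b, Hspa8, Hsph1, Dnajb1 and Hsp90aa1 and in Stip1, Chordc1, Dnaja1, Creld2, Manf, Hyou1 and Hspa5, and of the LFG columns only that of LFG 3 is red in Hsf1.

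Chaperones of other compartments were set beside the 10 genes. Of 15 chaperones of the endoplasmic reticulum, 8 were lower at an unadjusted p under 0.05 in REG and 10 in hADMSCs-Exo against LFG, beside 6.70% and 3.68% of all genes lower. None was higher, and the medians of the log2 fold changes were -0.58 and -0.77, and -0.52 and -0.76 without LFG 3. None reached an adjusted p under 0.05 by edgeR with all libraries. By DESeq2 7 and 4 did, beside 2.96% and 0.697% of all genes. By edgeR without LFG 3 the numbers were 6 and 3, beside 16.8% and 7.09% of all genes. In 8 of the 15 all LFG libraries were above all 6 others, beside 3.82% of all genes. Hspa5, the HSP70 of that compartment, was at 922 to 1449 CPM in LFG, 387 to 548 in REG and 496 to 735 in hADMSCs-Exo, again without overlap of LFG and the others. Creld2, Manf and Hyou1, all induced by unfolded proteins there, had log2 fold changes of -2.06, -1.59 and -1.78 in REG and of -1.74, -1.49 and -1.45 in hADMSCs-Exo against LFG. In hADMSCs-Exo against REG, 7 of the 15 had a higher and 8 a lower value, with a median log2 fold change of -0.10. Of the 8 subunits of the CCT chaperonin, which folds actin and tubulin, 0 were past an unadjusted p of 0.05 in REG against LFG and 1, Cct3, was lower in hADMSCs-Exo against LFG, with a log2 fold change of -0.53. All LFG libraries were above all 6 others in 4 of the 8 (Cct2, Cct3, Cct6a and Cct7, named after their values were seen), beside 3.82% of all genes, and the CCT medians against LFG were -0.19 and -0.24, and -0.08 and -0.11 without LFG 3. Of 10 mitochondrial chaperones 1, Trap1, an HSP90 relative, was higher in REG than in LFG at an unadjusted p under 0.05, beside 4.62% of all genes, with a log2 fold change of 0.51, and their medians against LFG were 0.15 and 0.02. Without LFG 3 these medians were 0.53 and 0.32, with 4 and 3 genes higher at an unadjusted p under 0.05, beside 18.2% and 12.8% of all genes, and 4 and 0 at an adjusted p under 0.05 by edgeR, beside 16.8% and 7.09%. In 1 of the 10 all LFG libraries were above all 6 others, beside 3.82% of all genes, and in 1 they were below all 6, beside 3.86%. Whether the cytosolic genes differed from these lists was not tested.

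**Figure D5:**
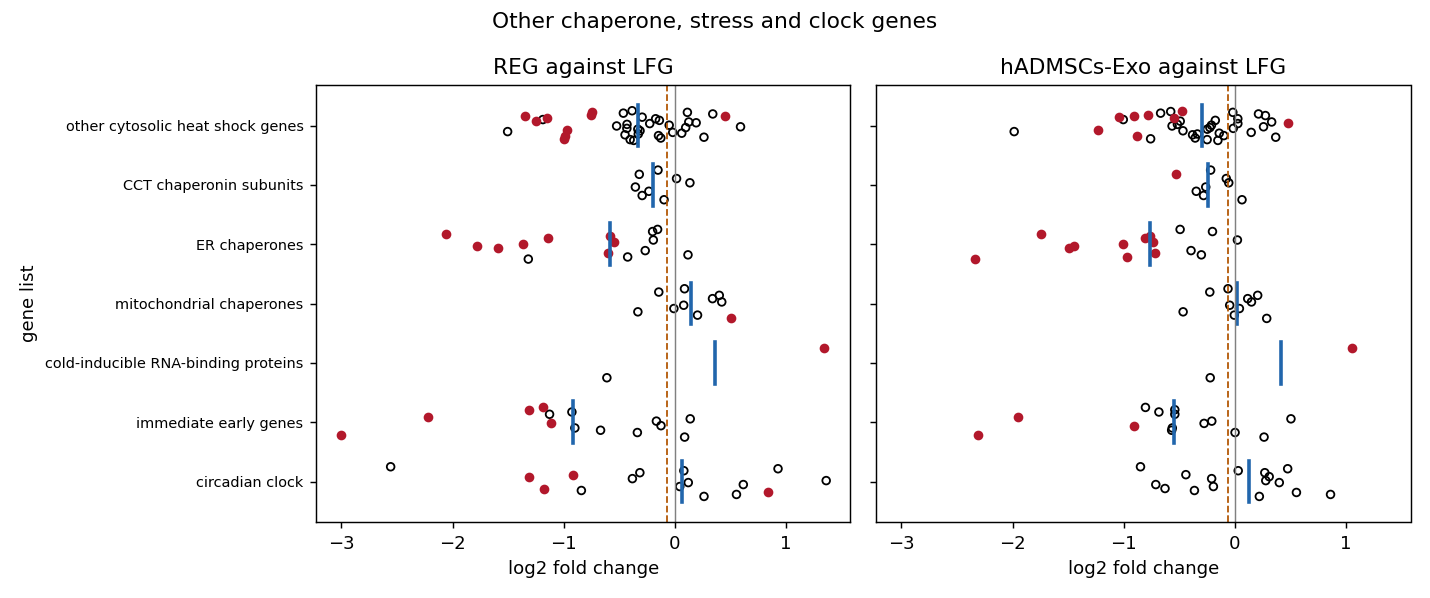
Log2 fold changes of the tested genes of 7 other lists in REG and in hADMSCs-Exo against LFG (1 point per gene; filled red, unadjusted p under 0.05 by edgeR; blue bars, medians of lists; dashed lines, medians of all genes tested). The medians lie at -0.33 and -0.29 for the other cytosolic genes, at -0.58 and -0.77 for chaperones of the endoplasmic reticulum and at 0.15 and 0.02 for mitochondrial chaperones, where they are 0.53 and 0.32 without LFG 3.

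Heat shock genes respond to temperature, so a pair of RNA-binding protein genes that rise on cooling was read as well. Cirbp was at 8.92, 14.4 and 14.5 CPM in LFG, at 48.0, 26.1 and 20.2 CPM in REG and at 28.8, 20.4 and 29.4 CPM in hADMSCs-Exo, below all 6 others in all 3 LFG libraries, where 3.86% of genes were so. Its log2 fold change was 1.34 (SE 0.38, unadjusted p = 0.010 and adjusted p = 0.342 by edgeR) in REG and 1.05 (SE 0.27, unadjusted p = 0.0056 and adjusted p = 0.805 by edgeR) in hADMSCs-Exo against LFG, and 1.48 and 1.19 without LFG 3, where the adjusted p by edgeR was 0.0441 and 0.0481 and 16.8% and 7.09% of all genes were under 0.05. Rbm3 was not alike: it was at 35.3 to 75.6 CPM in LFG, 24.6 to 49.8 in REG and 37.9 to 58.3 in hADMSCs-Exo, with overlap of all groups. No body temperature or time of sacrifice is given in the labels, and the part of either in the levels of the 10 genes was not tested.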

How the data were processed

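Mouse liver RNA was sequenced in groups LFG, REG and hADMSCs-Exo, 3 libraries each. RNA was extracted by the authors in Trizol, and libraries were built with an NEBNext Ultra kit. The submitters' processing notes list cutadapt 1.15, HISAT2 2.0.5, HTSeq 0.9.1, DESeq 1.30.0 and the GRCm38 build, without settings or use of strand. For each gene the authors deposited raw counts, not normalized, and FPKM values. FPKM equaled counts divided by gene length and library total, with relative differences up to 9.19e-07. The 3 libraries whose columns are headed MSC_E were read as those titled Exo. Samples of the hADMSCs group, 3 in number, were not used here. Gene positions in the table matched the GENCODE annotation of GRCm38 for all 10 genes.

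Counts were fitted in edgeR 4.0.16 (R 4.3.3) by its two-sided quasi-likelihood test. TMM normalization and edgeR's low-count filter were used. Each fit held the 6 libraries of the groups compared, and p-values were adjusted by Benjamini-Hochberg over all genes tested. Calls needed an adjusted p under 0.05 together with a log2 fold change of 1 or more in size. Log2 fold changes carry a standard error (SE), taken as their size divided by the square root of the F statistic of the test. The 95% confidence intervals were built from this SE and the t distribution. CPM values are counts scaled to a common library size with TMM over the 9 libraries. The alternatives were RLE size factors, library totals only, DESeq2 1.42.0, no filter, a minimum of 10 counts in each library, a joint fit of the 9 libraries, a replicate block, and each library left out in turn. The scripts were tested on simulated data. Python 3.11.15, pandas 2.3.3 and matplotlib 3.10.9 served for tables, alignment of open reading frames and plots.

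The members and gene lists were chosen with earlier results of these data known. The genes named from other lists are those at an unadjusted p under 0.05 in any comparison, at most 10 for the other cytosolic heat shock genes and 4 for each further list, beside Cirbp, Rbm3, Hsf2 and Hsbp1. For 1 of these genes no result is given. Library totals were 13837445 to 19840917 counts. Libraries of a group differed by more than sampling noise (lowest chi-square per gene, 23.4). The labels do not say whether each library came from its own mouse, so p-values measure the spread between these libraries. Groups share replicate numbers. Same-numbered hADMSCs-Exo and LFG libraries deviated together from their group means, with correlations across genes of 0.101, 0.308 and 0.180. All are above 0.1, the only ground for reading these numbers as pairs. The values reported are from fits without the block, which was an alternative. Correlations for hADMSCs-Exo with REG were 0.159, 0.00939 and 0.0336, and those for REG with LFG were 0.415, -0.202 and 0.305.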

Additional observations from a re-analysis of the deposited data

How the results depend on the processing

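LFG 3 differed most from the libraries of its group, with a chi-square per gene of 258 and 196 against LFG 1 and 2, while LFG 1 and 2 differed by 63.0, less than the 75.7 of hADMSCs-Exo 1 and 3, and Hspa1a, with 2 to 10 counts per library outside LFG, was limited by depth. The number of genes called, 1 in hADMSCs-Exo against REG, was 67 by DESeq2, 4 with no filter, 0 with all 9 libraries in one fit and 0 to 1 with a library left out. In REG against LFG it was 0, 240 by DESeq2 and 0 to 1391 with a library left out, the highest without LFG 3. In hADMSCs-Exo against LFG it was 0, 60 by DESeq2, 1 with all 9 libraries in one fit and 0 to 773 with a library left out, the highest without LFG 3. Of the other cytosolic heat shock genes, the number past an unadjusted p of 0.05 in hADMSCs-Exo against REG, 4, was 2 with all 9 libraries, 2 with the replicate number as a block and 0 to 5 with a library left out, with 1 without REG 1, 0 without REG 2, 2 without hADMSCs-Exo 2 and 2 without hADMSCs-Exo 3. It went from 9 to 5 without REG 1 in REG against LFG, with a range of 5 to 12. It went from 8 to 5, 4 and 4 without hADMSCs-Exo 1, 2 and 3 against LFG, with a range of 4 to 11. The log2 fold change of Hsf1 in REG against LFG turned to 0.29 without LFG 3 (range -0.40 to 0.29 with a library left out), and that in hADMSCs-Exo against LFG turned to 0.0095 with no filter, 0.074 with the block, 0.47 without LFG 3 and 0.15 without hADMSCs-Exo 3 (range -0.19 to 0.47). That of Hspb1 in hADMSCs-Exo against LFG turned to 0.046 without LFG 3 (range -1.19 to 0.05). With library totals only, Hsp90ab1 in REG against LFG went to -0.77, and the median of all genes shifted to -0.27 in REG and -0.18 in hADMSCs-Exo against LFG. The causes were not tested. Of 492 alternative values 465 kept their direction and stayed on the same side of the threshold or within the spread, and the block changed no other call.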

Other observations

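Immediate early genes, which are switched on within minutes of a stimulus, were in part lower than in LFG as well. Of 14 tested, 5 were lower at an unadjusted p under 0.05 in REG and 3 in hADMSCs-Exo against LFG, beside 6.70% and 3.68% of all genes lower. With all libraries none was higher, and the medians of their log2 fold changes were -0.91 and -0.55, and -0.86 and -0.47 without LFG 3. Without LFG 3, 6 and 5 were lower at an unadjusted p under 0.05, beside 19.1% and 15.7% of all genes, and 1 was higher in each comparison. By edgeR 0 reached an adjusted p under 0.05 with all libraries and 4 and 2 without LFG 3, beside 16.8% and 7.09% of all genes. By DESeq2 1 and 0 did with all libraries, beside 2.96% and 0.697% of all genes. Nr4a1, a nuclear receptor gene, was at 3.37, 12.6 and 27.1 CPM in LFG, at 1.01 to 2.53 in REG and at 2.25 to 3.34 in hADMSCs-Exo. Fos, a part of the AP-1 factor, was at 2.61, 3.63 and 13.2 CPM in LFG and at 0.989 to 1.84 in the other groups, so both genes had their highest level in LFG 3. The log2 fold changes of Nr4a1 were -3.01 in REG and -2.31 in hADMSCs-Exo against LFG, and -2.13 and -1.46 without LFG 3, and those of Fos were -2.22 and -1.95, and -1.14 and -0.89 without it. Btg2 was higher in hADMSCs-Exo than in REG, with a log2 fold change of 0.80 (SE 0.16), and Junb was lower, with -0.76 (SE 0.17), both at an adjusted p of 0.358 by edgeR, with adjusted p values of 0.0205 and 0.0335 by DESeq2, where 0.900% of all genes were under 0.05.

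Genes of the circadian clock differed between libraries of 1 group. Dbp, a clock output gene, was at 23.7, 21.7 and 149 CPM in LFG, at 138 to 188 in REG and at 44.2 to 128 in hADMSCs-Exo. Cry1, a repressor of the clock, was at 8.96, 23.5 and 9.39 CPM in LFG, at 4.25 to 7.43 in REG and at 9.47 to 25.5 in hADMSCs-Exo. Of 16 clock genes tested, 3 were lower and 1 higher at an unadjusted p under 0.05 in REG against LFG, beside 6.70% and 4.62% of all genes, with a median log2 fold change of 0.06. Leaving out LFG 3 turned this balance, to 4 lower and 8 higher, beside 19.1% and 18.2% of all genes, and the median was then 0.68, with 6 genes at an adjusted p under 0.05 by edgeR, beside 16.8%. For hADMSCs-Exo and LFG, 0 were past an unadjusted p of 0.05 and the median was 0.13, while leaving out LFG 3 gave 2 lower and 6 higher, beside 15.7% and 12.8%, a median of 0.39 and 1 gene at an adjusted p under 0.05 by edgeR, beside 7.09%. Per1 had a log2 fold change of -1.18 in REG against LFG, and -0.78 without LFG 3. Nr1d1 was at 25.6 to 67.4 CPM in REG and 10.3 to 33.0 in hADMSCs-Exo. The time of day of sacrifice is not given in the labels, and its part in the levels of the heat shock genes was not tested.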
